A study of Mus musculus with 36 samples.

Results

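The livers of DBA/2J and AKR/J mice left undisturbed in their home cages were compared, as a difference of group means over 45037 probe sets. The comparison used 6 of the 36 arrays of the series, chosen by their titles: 3 arrays of DBA/2J control liver and 3 of AKR/J control liver. The study as a whole measured brain and liver of 3 inbred mouse strains, with and without 6 h of sleep deprivation from light onset. All animals were males of 12 to 13 weeks from the Jackson Laboratory. DBA/2J, AKR/J and C57BL/6J are fully inbred strains without an engineered allele in this study, and the controls received no treatment and were killed at Zeitgeber time (ZT) 6, that is 6 h after light onset. RNA of whole liver from 3 mice was pooled in equal amounts for each array, so the spread between arrays is that between pools and not between single mice. AKR/J controls 2 and 3 carry a second time label, ZT 0, that conflicts with their titles. They were kept as ZT 6, and the main counts are repeated with both left out.

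Liver is built mostly of hepatocytes, which make plasma proteins, bile acids and the enzymes that oxidise and conjugate foreign compounds. Resident macrophages (Kupffer cells), sinusoidal endothelium, stellate cells and lymphocytes make up the rest. Inbred strains are fixed for different alleles at many loci. AKR/J carries the H2k haplotype of the major histocompatibility complex (MHC) and DBA/2J the H2d haplotype, and type I and type II interferons switch on a common set of antiviral genes in most cells, hepatocytes and macrophages included.

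The values were log2 expression values summarised per probe set, a group of short probes for 1 transcript. Across probe sets, arrays correlated at 0.989 to 0.994 within DBA/2J controls, at 0.994 to 0.995 within AKR/J controls and at 0.983 to 0.989 between the strains. Hepatocyte markers were at the top of the range in every array. Their mean was 13.13 to 13.26 in DBA/2J and 13.30 to 13.46 in AKR/J, without overlap. Over the 10 markers the median difference was -0.13 and 2 differences were above 0. By limma 1 marker was lower at an adjusted p under 0.05, as were 2.43% of all genes. Alb, which encodes serum albumin and was named after its value was seen, differed by -0.01 ± 0.07 (log2, SE). DBA/2J control 1 stood apart in the ratio of 3′ to 5′ probes for Actb, a measure of RNA integrity, at 2.16 on the log2 scale against 0.96 to 1.45 in the other 17 liver arrays. DBA/2J control 3 was low in acute phase and metallothionein genes. Its Saa1 value was 10.10 against 13.95 and 13.74 in the other DBA/2J controls, while the AKR/J controls had 13.81, 13.57 and 11.76. Markers of T cells, B cells, neutrophils, pancreas, adipocytes, skeletal muscle, bile duct and endothelium included no gene past the threshold (limma, adjusted p under 0.05). At an unadjusted p under that value they included 0, 1, 0, 1, 0, 0, 1 and 2 genes in that order, against 3156 of all 18193 genes. Apart from endothelium these lists averaged 3.91 to 5.11 in these controls. That is near the liver array medians of 4.05 to 4.13, so the lack of calls says little. Of the lists not treated below, 1 of 9 pericentral hepatocyte and 1 of 4 red blood cell markers were higher. Lower were 1 of 10 stellate cell and 2 of 8 periportal hepatocyte markers (3.46% of all genes were higher and 2.43% lower). Hc, which encodes complement C5 and is known to be defective in both strains, had 10.40, 10.49 and 10.55 in DBA/2J and 10.68, 10.63 and 10.43 in AKR/J controls, all below the 12.11 to 12.47 of C57BL/6J controls.

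Of 18193 genes, each read from its brightest probe set, 629 were higher in DBA/2J (3.46% of the genes tested) and 442 were lower (2.43%), by limma on all 18 liver arrays with Benjamini-Hochberg adjustment over all probe sets. At the level of probe sets 1898 of 45037 passed (4.21%), with 1037 higher (2.30%) and 861 lower (1.91%). Most differences were modest. The median size among the 1071 genes past the threshold (5.89% of those tested) was 0.64 on the log2 scale, 242 genes differed by at least 1 (1.33% of all genes; 171 higher and 71 lower), and 51 by at least 2. The median difference over all genes was 0.00. The 3 arrays of each strain did not overlap for 1059 of the 1071 genes, a property that 19.7% of all genes had. Fitting only the 6 arrays of this comparison left 1035 probe sets past the threshold. With the AKR/J arrays 2 and 3, which bear both time labels, left out, 726 passed.

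The largest positive difference belonged to Ugt3a2, a member of a small family of UDP-sugar transferases that conjugate lipophilic compounds. It read 10.99, 11.17 and 11.34 in DBA/2J against 4.24, 4.55 and 4.67 in AKR/J. The strains were separated by 6.68 ± 0.22 (log2, SE; adjusted p = 9.84e-14, limma), or 102-fold, and C57BL/6J controls at 11.45 to 11.49 lay with DBA/2J. Obp2a, which encodes a lipocalin that carries small hydrophobic molecules, had the opposite company. It read 10.68, 11.03 and 11.46 in DBA/2J and 5.17, 4.56 and 4.51 in AKR/J, a 79.4-fold difference (log2 6.31 ± 0.31, adjusted p = 8.35e-11, limma), while C57BL/6J controls were lower still at 3.50 to 3.99. Cyp2c37, a cytochrome P450 of the arachidonic acid and drug oxidising 2C subfamily, stood at 9.27, 9.38 and 9.08 in DBA/2J and at 3.37, 3.79 and 3.19 in AKR/J (log2 5.79 ± 0.29, 55.3-fold, adjusted p = 1.17e-10, limma). The AKR/J values of these 3 genes lay near the dim end of the array's scale, where folds are compressed.

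Among the other genes with the largest positive differences, Vnn1, which encodes the pantetheinase vanin 1, differed by 4.21 ± 0.25, and its neighbour in function Vnn3 by 1.91 ± 0.10. Hamp2, a homologue of the iron hormone hepcidin, read 13.96, 13.79 and 13.84 in DBA/2J against 10.56, 10.28 and 10.90 in AKR/J (log2 3.28 ± 0.21, adjusted p = 3.32e-09, limma). Its second probe set was dim, near 4.24 in DBA/2J and 4.26 in AKR/J, and did not differ past the threshold. Hamp, which encodes hepcidin itself, read 13.40, 13.40 and 13.21 in DBA/2J and 13.35, 13.30 and 13.40 in AKR/J, with overlapping groups and a difference of -0.01 ± 0.17. Cap1, which encodes an actin monomer recycling protein, was higher by 2.98 ± 0.13 and by 3.32 ± 0.19 in its 2 probe sets. Rassf4 (a Ras association domain protein), Akr1e1 (an aldo-keto reductase), Gbp6 and Gbp8 (guanylate binding proteins), Arsg (a lysosomal sulfatase), BC023105 and C730036E19Rik completed the 15 largest, with differences of 2.70 to 3.26. BC023105 varied most among DBA/2J arrays, at 6.67, 8.20 and 6.11, all above AKR/J, which averaged 3.73 ± 0.26 (SD, n = 3).

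In the other direction, Nlrp12, a cytoplasmic sensor of the NOD-like receptor family that restrains inflammatory signalling, read 2.90, 2.80 and 3.43 in DBA/2J against 7.46, 7.95 and 7.71 in AKR/J. The difference was -4.66 ± 0.22 (adjusted p = 4.40e-11, limma), 25.3-fold lower, and C57BL/6J controls read 8.03 to 8.36. The DBA/2J values lay below the array medians, so this fold is compressed and has no precise size. Abhd1, which encodes an alpha/beta hydrolase, was at 4.51, 4.84 and 4.51 in DBA/2J and at 8.45, 8.58 and 8.63 in AKR/J (-3.94 ± 0.11, adjusted p = 9.61e-15, limma). Here C57BL/6J controls, at 4.79 to 5.04, were close to DBA/2J. Mme, which encodes the membrane peptidase neprilysin, was lower in both of its probe sets, by -3.46 ± 0.23 and -2.22 ± 0.17. Other genes of this group were Aox3, an aldehyde oxidase (-3.01 ± 0.16), Nat8, an N-acetyltransferase (-2.90 ± 0.11), Cyp39a1, an oxysterol hydroxylase of bile acid synthesis (-2.70 ± 0.21), and Cyp46a1, a cholesterol hydroxylase best known from neurons (-2.48 ± 0.20). Cplane1, Pdxdc1, 1810008I18Rik, Cyp2c23, 2010315B03Rik, Cyp3a13, Bcl7c and Tmem267 completed the 15 largest, at -2.28 to -3.22.

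All 30 of these genes were past the threshold under each of the alternative fits run. Of the 13 that have further probe sets, 5 were called the same way by every one, and 3 by none of the others. Pdxdc1, a pyridoxal-dependent decarboxylase domain gene, was divided: its brightest probe set was lower in DBA/2J (5.13 against 8.28), and another was higher by 5.18 ± 0.08 (8.34 against 3.16). Probe sets of 1 gene can cover different exons or ends, and probe sequences follow a reference transcript. Whether strain variants under the probes had a part in any of these differences was not tested.

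**Figure D1:**
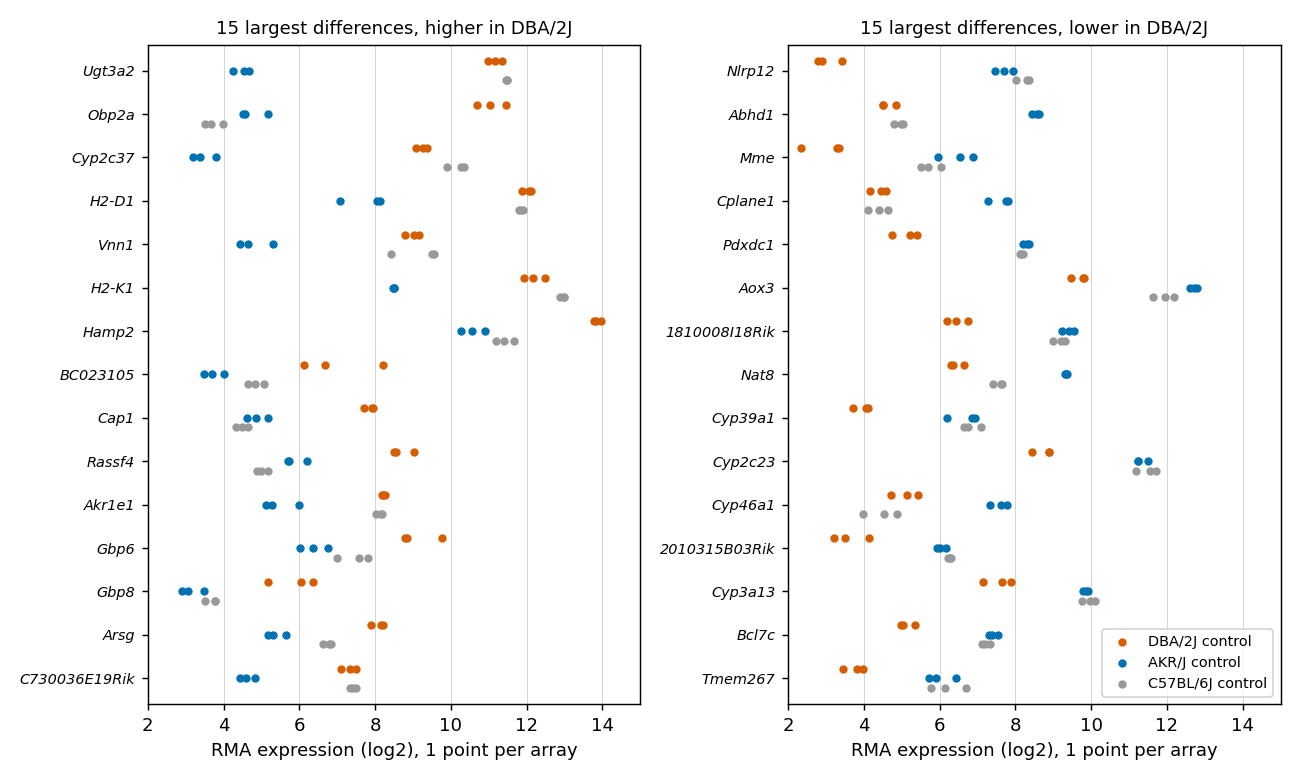
Expression in control liver of the 15 genes with the largest positive difference (left) and the 15 with the largest negative difference (right), DBA/2J minus AKR/J. Each point is 1 array on the log2 scale (orange DBA/2J, blue AKR/J, grey C57BL/6J, 3 arrays each); DBA/2J and AKR/J points do not overlap for any gene, as the rule for these genes required, and C57BL/6J lies with DBA/2J for Ugt3a2 and Abhd1 and with AKR/J for Nlrp12 and Cap1.

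Among enzymes that process foreign compounds, single members differed widely in both directions. Of 44 measured members of cytochrome P450 families 1 to 3 with their receptors, 2 were higher and 3 were lower, against 3.46% and 2.43% of all genes, and the median was -0.04. Cyp2c37 and Cyp2c55 (1.93 ± 0.23) were the higher ones. The lower ones were Cyp2c23, an epoxygenase (8.44, 8.89 and 8.90 in DBA/2J against 11.25, 11.24 and 11.49 in AKR/J), Cyp3a13 (-2.30 ± 0.16) and Cyp2c39, a retinoic acid hydroxylase (-2.03 ± 0.19). Cyp2e1 (-0.04 ± 0.07) and Cyp1a2 (0.06 ± 0.11), both enzymes of hepatic drug oxidation, were close between strains. Of the 44 members, 12 had an unadjusted p under 0.05 by limma, as did 3156 of all 18193 genes. Among 49 conjugating enzymes 3 were higher and 8 lower, against the same 3.46% and 2.43%, and the median was -0.01. Besides Ugt3a2, the higher ones were Mgst3, a microsomal glutathione transferase (1.67 ± 0.14), and Tpmt, the methyltransferase that inactivates thiopurine drugs (1.24 ± 0.10). The other probe sets of Tpmt, all dimmer, did not pass, at 0.13, 0.12 and 0.19, so its difference rests on 1 probe set. The lower ones included the glutathione transferases Gstt3 (-1.15 ± 0.15), Gsto1 (-0.66 ± 0.09), Gsta4, Gstt1 and Gstk1, the sulfate donor synthase Papss2 (-0.94 ± 0.10) and the sulfotransferase Sult1d1 (-0.90 ± 0.18). Second probe sets did not pass for Mgst3 (0.32), Gsto1 (-0.19) and Sult1d1 (-0.56). For Papss2 another was lower (-1.05 ± 0.21), and those at -0.36 and -0.17 did not pass.

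The shares of all genes, 3.46% higher and 2.43% lower, are those against which each further list count in control liver is to be read. Carboxylesterases and other hydrolases had 2 higher members of 18, Ces1g (2.47 ± 0.12) and Aadac (0.58 ± 0.09). Ces1g, a hepatic carboxylesterase that hydrolyses esters of lipids and drugs, read 9.36, 9.55 and 9.34 in DBA/2J and 6.93, 6.84 and 7.06 in AKR/J, and C57BL/6J controls, at 9.30 to 9.64, lay with DBA/2J. Of 41 genes of aldehyde, alcohol and aldo-keto metabolism, 4 were higher and 5 lower. The flavin monooxygenases Fmo1 (1.02 ± 0.12) and Fmo4 (0.90 ± 0.18) and the retinol dehydrogenase Rdh16 (1.28 ± 0.14) were higher. Xdh, the xanthine dehydrogenase of purine breakdown, was lower by -1.42 ± 0.10, in the same direction as the related molybdenum enzyme Aox3. Gclm, the modifier subunit of the enzyme that limits glutathione synthesis, was lower by -1.17 ± 0.13, and Gss, which completes glutathione, by -0.34 ± 0.09. They were the 2 genes past the threshold among 24 of oxidative stress, and the adjusted p of Gss reached 0.1666 with 1 array left out.

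**Figure D2:**
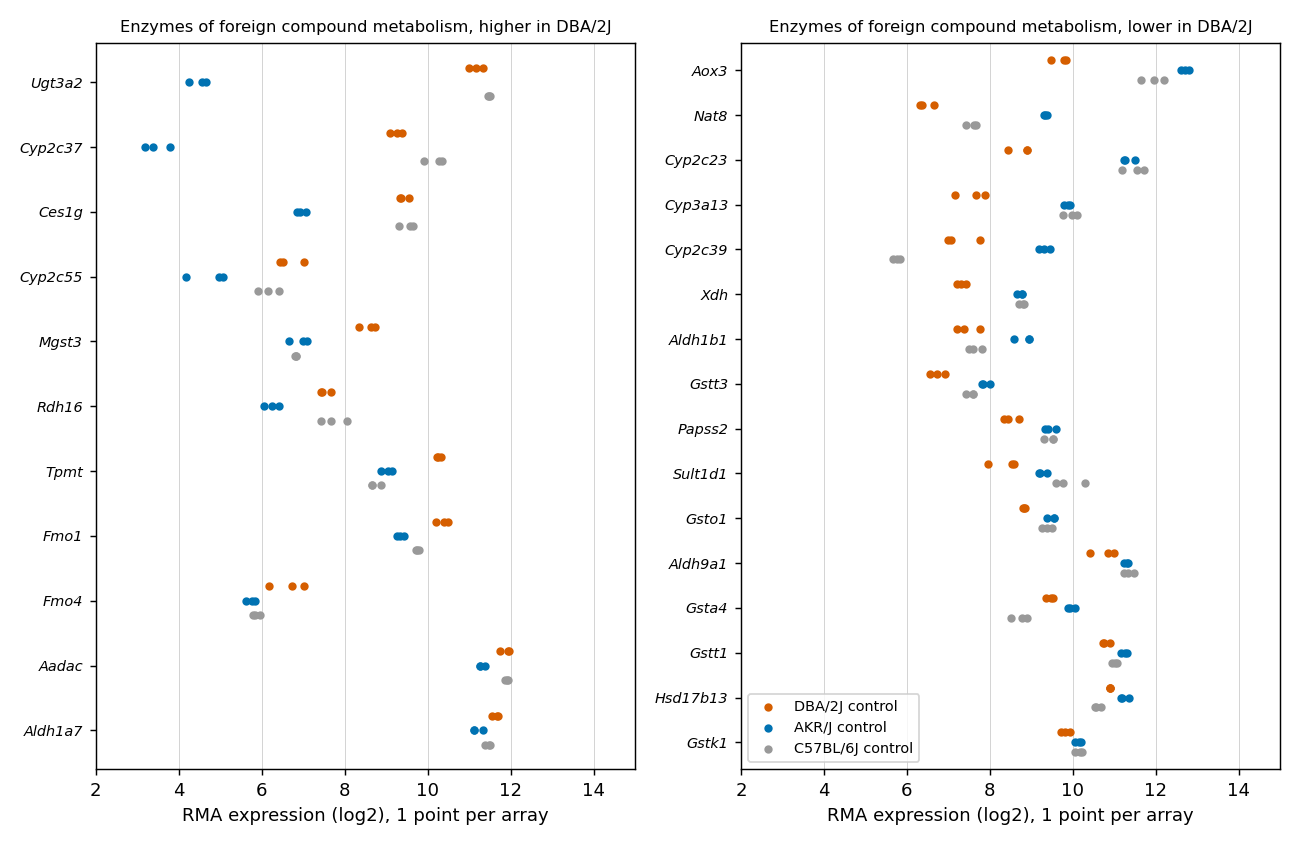
The 27 enzymes of foreign compound metabolism past the threshold in control liver, from the lists of P450 families 1 to 3, conjugating enzymes, hydrolases and aldehyde or alcohol metabolism. Each point is 1 array on the log2 scale (orange DBA/2J, blue AKR/J, grey C57BL/6J); 11 enzymes were higher in DBA/2J (left) and 16 lower (right), and the differences ranged from the 102-fold of Ugt3a2 to small ones such as Gstk1 at -0.31.

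Interferon-stimulated genes were higher in DBA/2J liver as a broad group. Of 38 measured members of the list of interferon-stimulated and Ifi200 family genes, 26 were higher and 0 were lower by limma. The background was 3.46% of genes higher. At an unadjusted p under 0.05, 31 members passed in either direction, where 3156 of all 18193 genes did. The median difference of the list was 0.99 and that of all genes 0.00. Averaged over the list, the DBA/2J controls stood at 7.29, 7.48 and 6.90, the AKR/J controls at 6.08, 6.11 and 6.04, and the C57BL/6J controls at 6.56 to 6.63. All DBA/2J arrays were above all AKR/J arrays. DBA/2J control 3, the array with low Saa1, was the lowest of its strain.

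The promoters of 4 of these genes are shown because they carry, within 250 bases before the annotated start, the letters to which interferon-activated factors are known to bind. The sequences are from RefSeq, build GRCm38.p6, the C57BL/6J reference, on the strand of the gene, and run from 250 bases before the start to 50 after. They are not the sequences of the strains compared. Capitals mark each match to the core of the interferon-stimulated response element (ISRE), which is GAAA, any 2 bases and GAAA again, searched on both strands, where the other strand reads TTTC, any 2 bases and TTTC.
Ifit1, chr19:34640639-34640938, plus strand: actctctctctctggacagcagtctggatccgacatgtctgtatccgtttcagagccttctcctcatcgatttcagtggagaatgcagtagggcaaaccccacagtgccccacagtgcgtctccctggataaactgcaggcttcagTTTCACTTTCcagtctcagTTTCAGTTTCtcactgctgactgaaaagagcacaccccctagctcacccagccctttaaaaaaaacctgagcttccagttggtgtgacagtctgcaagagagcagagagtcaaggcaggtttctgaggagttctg
Igtp, chr11:58199306-58199605, plus strand: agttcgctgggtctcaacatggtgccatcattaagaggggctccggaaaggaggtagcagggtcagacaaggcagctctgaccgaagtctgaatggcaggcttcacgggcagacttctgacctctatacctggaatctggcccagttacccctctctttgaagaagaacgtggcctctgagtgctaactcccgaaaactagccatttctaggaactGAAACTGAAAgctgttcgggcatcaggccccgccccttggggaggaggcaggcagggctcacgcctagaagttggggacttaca
Gbp3, chr3:142559794-142560093, plus strand: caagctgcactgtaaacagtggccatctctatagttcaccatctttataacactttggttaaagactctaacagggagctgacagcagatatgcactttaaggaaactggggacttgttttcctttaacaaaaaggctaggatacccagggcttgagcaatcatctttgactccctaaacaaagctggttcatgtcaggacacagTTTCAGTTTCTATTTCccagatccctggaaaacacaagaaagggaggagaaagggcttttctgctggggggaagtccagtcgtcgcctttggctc
Ifit3, chr19:34583279-34583578, plus strand: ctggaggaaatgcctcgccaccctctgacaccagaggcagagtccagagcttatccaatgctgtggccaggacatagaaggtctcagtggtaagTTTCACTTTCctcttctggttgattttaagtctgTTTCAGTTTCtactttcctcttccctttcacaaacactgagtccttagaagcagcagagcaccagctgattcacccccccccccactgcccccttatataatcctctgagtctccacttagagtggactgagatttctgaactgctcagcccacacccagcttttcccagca
The matches begin 104 and 85 bases before the start in Ifit1, 34 in Igtp, 45 and 39 in Gbp3, where they overlap, and 156 and 122 in Ifit3. Among the 26 higher members, 20 had promoters in the RefSeq table, and 14 of their 25 windows held the letters (56.0%), against 1131 of 32851 promoters in all (3.4%). Of the windows of members that did not pass, 7 of 12 held them (58.3%). A match describes these letters and is no evidence of binding.

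Igtp, an interferon-inducible GTPase that acts on pathogen vacuoles, read 11.08, 11.42 and 10.69 in DBA/2J against 8.91, 9.06 and 9.04 in AKR/J (2.06 ± 0.14, adjusted p = 1.24e-08, limma). The C57BL/6J controls, at 8.87 to 8.94, lay with AKR/J. Ifit1, whose protein binds viral RNA caps, read 7.60, 8.08 and 7.43 in DBA/2J and 5.45, 5.40 and 5.62 in AKR/J (2.21 ± 0.24, adjusted p = 4.29e-06, limma). Groups did not overlap for either gene. Of its relatives, Ifit3 differed by 1.75 ± 0.21 and Ifit2 by 1.50 ± 0.35. Gbp3, a guanylate binding protein, was at 7.60, 7.84 and 6.36 in DBA/2J and at 5.63, 5.62 and 5.02 in AKR/J, so that the lowest DBA/2J array was only a little above the highest of AKR/J (1.84 ± 0.27, adjusted p = 2.39e-04, limma).

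Among GTPases of the guanylate binding and immunity-related families, Gbp6 (2.75 ± 0.31), Gbp7 (1.65 ± 0.19), Gbp2 (1.48 ± 0.26), Iigp1 (0.92 ± 0.14) and Irgm1 (0.79 ± 0.17) were higher, beside Gbp3 and Igtp. Among sensors and enzymes of the oligoadenylate synthase family, Oasl2 (2.57 ± 0.28), Oasl1 (2.44 ± 0.15), Oas1a (1.69 ± 0.25) and Oas3 (0.71 ± 0.13) were higher, and Oas2 was not (-0.10, adjusted p = 0.8142, limma). Irf7, the transcription factor that amplifies type I interferon production, read 10.13, 9.45 and 8.73 in DBA/2J and 7.02, 7.08 and 7.01 in AKR/J. Its DBA/2J arrays spread more widely than those of AKR/J and did not overlap them (2.40 ± 0.30, adjusted p = 3.12e-05, limma). Usp18, the negative regulator of interferon receptor signalling, differed by 2.10 ± 0.24, the nucleic acid sensor Zbp1 by 2.03 ± 0.26, the T cell attracting chemokines Cxcl9 by 1.92 ± 0.22 and Cxcl10 by 0.93 ± 0.16, and the antiviral radical enzyme Rsad2 by 1.45 ± 0.19.

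Ifi202b, of the DNA-binding Ifi200 family, was at 8.49, 8.36 and 7.55 in DBA/2J against 5.81, 5.69 and 5.46 in AKR/J (2.48 ± 0.24, adjusted p = 1.30e-06, limma), with C57BL/6J at 3.09 to 3.57. All 3 strains were apart for this gene. Its relatives Ifi203 (0.07), Ifi204 (0.34) and Mndal (0.06) did not pass. The remaining members not past the threshold were the RNA sensors Ifih1 (0.11) and Ddx58 (0.27), the signalling factors Stat2 (0.10) and Irf1 (0.31), and Mx1, Trim30d, Samhd1 and Xaf1, the last at -0.38 (adjusted p = 0.1228, limma). Among these members, other probe sets were higher for 2: for Samhd1 by 0.56 ± 0.12 and 0.80 ± 0.14, and for Xaf1 by 4.64 ± 0.18 (8.40 in DBA/2J and 3.76 in AKR/J), so the direction of Xaf1 is uncertain. Mx2 (0.59), Isg20 (0.57) and Bst2 (0.57) passed by a small margin, and leaving out 1 array could lift their adjusted p to 0.1469, 0.1486 and 0.1833. With AKR/J controls 2 and 3 left out, 16 members were higher, and without any single array of the comparison 21 to 27.

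**Figure D3:**
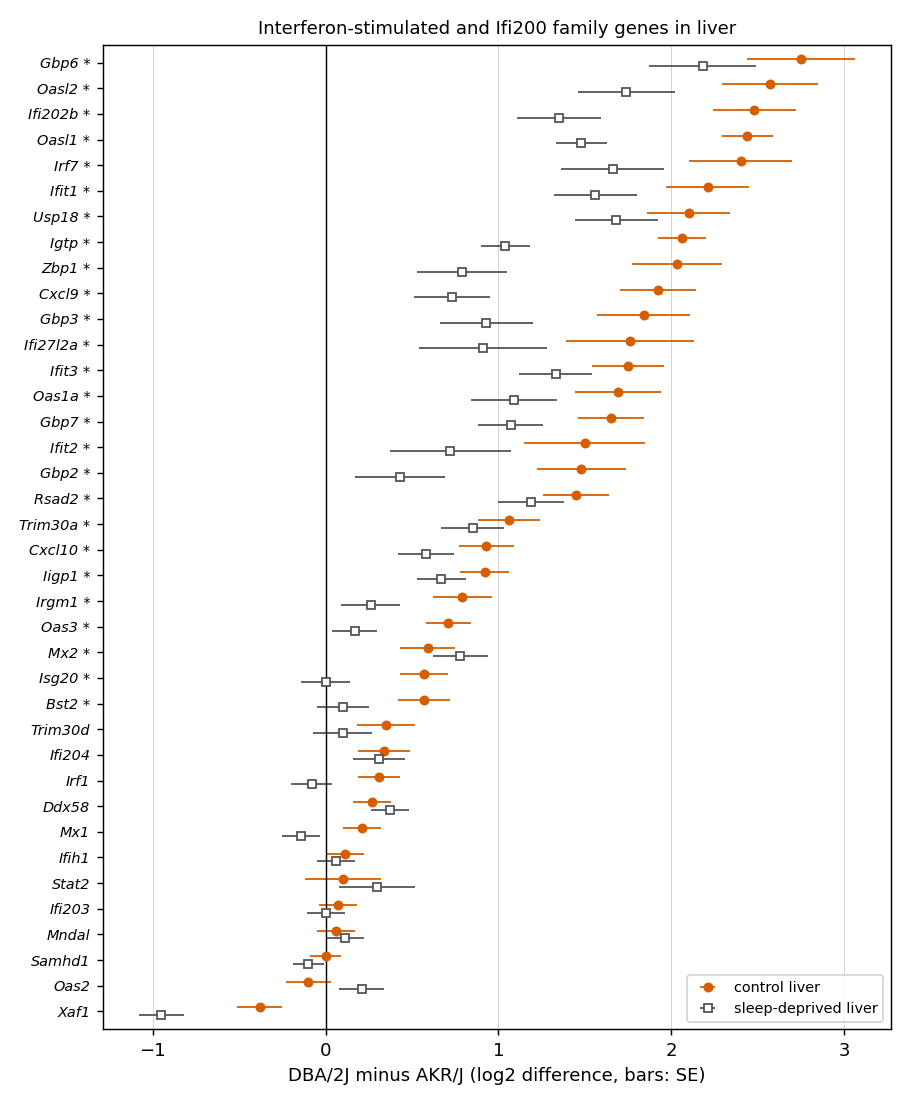
DBA/2J minus AKR/J difference (log2, bars are SE, 3 arrays per group) of the 38 interferon-stimulated and Ifi200 family genes in control liver (orange circles) and sleep-deprived liver (open grey squares); asterisks mark the 26 past the threshold in controls. In controls 35 of the 38 differences were above 0, up to 2.75 for Gbp6, and in sleep-deprived liver the median was 0.70.

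MHC and antigen presentation genes were also higher, and their largest differences lay in the classical class I genes. Of 24 measured members 13 were higher and 1 was lower, with a median of 0.76, against 3.46% higher and 2.43% lower among all genes. The list averaged 7.63, 7.69 and 7.35 in DBA/2J controls, 6.63, 6.63 and 6.62 in AKR/J controls and 7.28 to 7.33 in C57BL/6J controls. H2-K1, which encodes the class I heavy chain K, read 12.49, 12.18 and 11.93 in DBA/2J against 8.49, 8.48 and 8.49 in AKR/J (3.72 ± 0.14, adjusted p = 7.77e-13, limma). H2-D1, the class I heavy chain D, read 12.06, 12.12 and 11.87 in DBA/2J against 7.07, 8.06 and 8.14 in AKR/J (4.26 ± 0.22, adjusted p = 1.27e-10, limma). For both genes C57BL/6J controls were near the DBA/2J level or above it.

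The probe sets of these 2 genes disagreed. H2-D1 had 9 probe sets: 7 were higher in DBA/2J, by 1.60 to 7.51, 1 was lower by -4.50 ± 0.13 (6.60 in DBA/2J and 11.10 in AKR/J), and 1 did not pass. H2-K1 had 4, of which 2 were higher by 3.35 ± 0.14 and 3.72 ± 0.14, and 2 did not pass at 0.39 and 0.30. Most carry the suffix by which the manufacturer marks probes that can also match related transcripts, and class I genes are highly alike and differ between haplotypes. The difference in amount of class I transcript and a difference in how the probes match each haplotype cannot be told apart with these values. The light chain B2m, which is not encoded in the MHC, read 13.94, 13.98 and 14.00 in DBA/2J and 13.71, 13.73 and 13.77 in AKR/J, with a difference of 0.24 ± 0.08 that did not pass (adjusted p = 0.0971, limma).

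Class II genes and the processing machinery were also higher. H2-Ab1 (1.77 ± 0.20), H2-Eb1 (1.50 ± 0.14), H2-Aa (1.31 ± 0.14) and H2-Ea (0.89 ± 0.13), the chains of the class II molecules, were higher, as were Cd74, the invariant chain that escorts them (1.10 ± 0.19), and H2-DMa, which loads them with peptide (0.97 ± 0.18). The probe sets of H2-Ea disagreed in size, and a second one was higher by 3.67 ± 0.22 (7.09 in DBA/2J and 3.43 in AKR/J). For the class II chains too, the amount of transcript and the match of probes to each haplotype cannot be told apart with these values. H2-Eb1 read 8.08, 7.94 and 7.30 in DBA/2J against 6.20, 6.38 and 6.24 in AKR/J, without overlap. Ciita, the master regulator of class II transcription, was dim and did not pass (-0.08 ± 0.10). For class I processing, the peptide transporter Tap1 (1.76 ± 0.17) and the immunoproteasome subunits Psmb9 (1.43 ± 0.17) and Psmb8 (1.32 ± 0.18), all interferon-inducible genes within the MHC, were higher. Psmb9 read 9.59, 9.79 and 8.98 in DBA/2J and 8.14, 8.02 and 7.90 in AKR/J, while C57BL/6J controls, at 7.81 to 7.88, were at or below AKR/J. Tap2 passed at 0.64 ± 0.16 but its adjusted p reached 0.1603 with 1 array left out. The lower member was H2-Q10, which encodes a secreted class I molecule made by liver: it read 11.97, 12.09 and 12.01 in DBA/2J and 12.59, 12.52 and 12.55 in AKR/J (-0.53 ± 0.08, adjusted p = 1.97e-04, limma).

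Markers of Kupffer cells and macrophages were higher in DBA/2J, with 7 of 11 past the threshold and 0 lower, against 3.46% and 2.43% of all genes. By limma 10 had an unadjusted p under 0.05, against 3156 of all 18193 genes, and all 11 differences were above 0. The list averaged 8.45, 8.16 and 7.70 in DBA/2J controls, 7.50, 7.21 and 6.89 in AKR/J controls and 7.67 to 8.08 in C57BL/6J controls. The groups did not overlap, though the lowest DBA/2J array exceeded the highest AKR/J array by less than the spread within either strain. The complement C1q chains, which liver macrophages secrete, differed alike: C1qb by 1.17 ± 0.21, C1qc by 1.13 ± 0.21 and C1qa by 1.11 ± 0.19. C1qa read 8.86, 9.11 and 8.74 in DBA/2J and 8.13, 7.67 and 7.57 in AKR/J. The growth factor receptor Csf1r (0.75 ± 0.16), the macrophage surface receptor Adgre1 (0.98 ± 0.24), the complement receptor Vsig4 (0.84 ± 0.24) and the secreted scavenger protein Cd5l (1.23 ± 0.32) passed too.

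Clec4f, the lectin that defines mouse Kupffer cells, read 9.59, 9.15 and 8.86 in DBA/2J and 8.81, 8.54 and 8.28 in AKR/J. The groups were separate, but the difference of 0.66 ± 0.19 did not pass (adjusted p = 0.0605, limma). Timd4 (1.00 ± 0.31), Cd68 (0.71 ± 0.23) and Marco (0.38 ± 0.32) did not pass, and Marco overlapped between strains. In bulk liver, fewer cells of a type and less RNA per cell cannot be told apart. The number of markers higher varied with the arrays used: it was 4 without DBA/2J control 1, DBA/2J control 2 or AKR/J control 2, 3 without AKR/J control 3, and 10 without DBA/2J control 3. It was 0 with AKR/J controls 2 and 3 both left out. Macrophages also express interferon and MHC genes. Between the strains the Kupffer list differed in the same direction as those lists. Within AKR/J controls it ranged over 6.89 to 7.50, the interferon list over 6.04 to 6.11 and the MHC list over 6.62 to 6.63. Within DBA/2J controls the 3 ranges, in that order, were 7.70 to 8.45, 6.90 to 7.48 and 7.35 to 7.69. DBA/2J control 3 was the lowest of its strain in each list. The part of macrophages in the interferon and MHC results was not tested. Of the other immune lists, the cytotoxic lymphocyte genes Gzma (0.92 ± 0.18) and Klrk1 (0.50 ± 0.12) were higher among 7 natural killer cell markers. Both were dim, at 4.62 and 4.45 in DBA/2J against 3.70 and 3.95 in AKR/J. In sleep-deprived liver 1 of the 7 was higher (3.91% of all genes were). Without DBA/2J sleep-deprived array 2, described below, 0 were (2.54% of all genes). Ncr1, a receptor that defines natural killer cells, did not pass in controls (0.11).

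**Figure D4:**
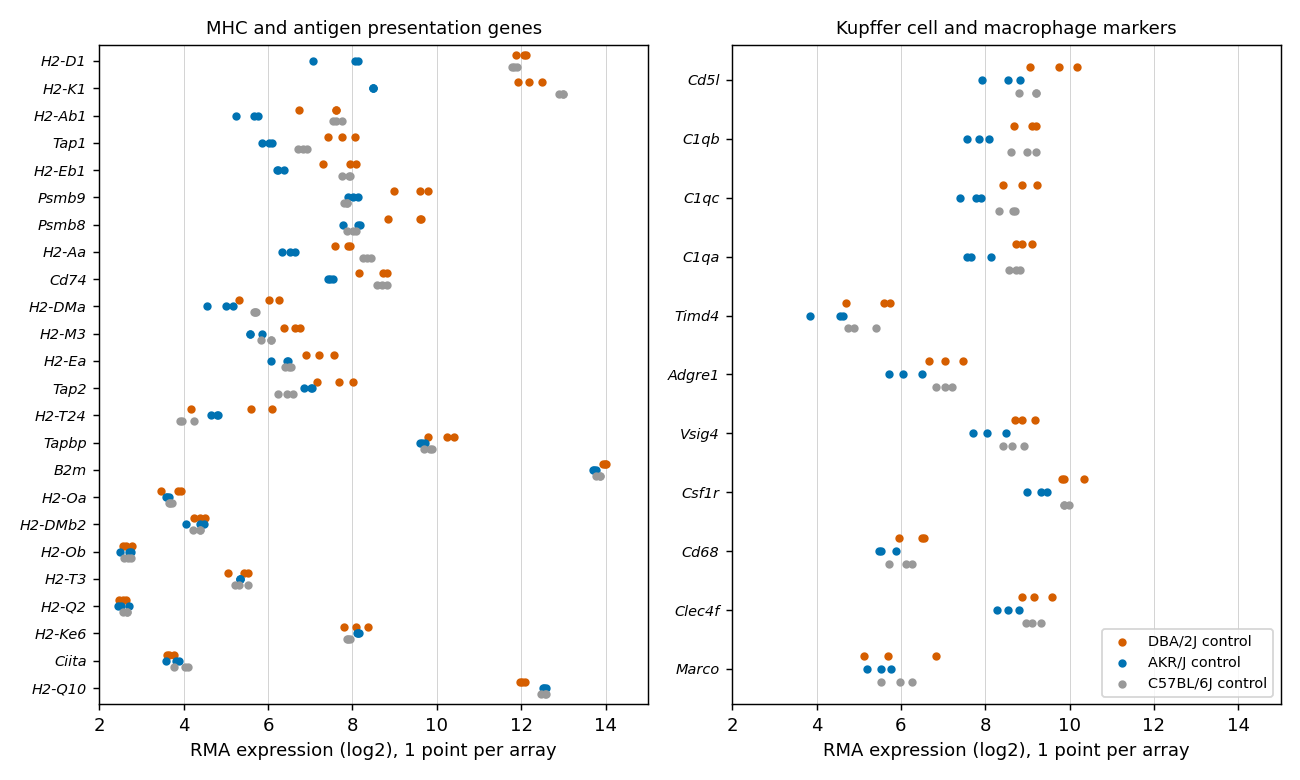
Expression per array (log2) in control liver of the 24 MHC and antigen presentation genes (left) and the 11 Kupffer cell and macrophage markers (right), ordered by the DBA/2J minus AKR/J difference, with DBA/2J in orange, AKR/J in blue and C57BL/6J in grey. Class I genes H2-D1 and H2-K1 are separated by about 4 on the log2 scale (4.26 and 3.72), the other higher genes by 0.64 to 1.77, and H2-Q10 at the bottom is lower in DBA/2J.

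The complement list, which holds the C1q chains again, had 6 higher members and 1 lower of 24, against 3.46% and 2.43% of all genes. The terminal components C6 (1.50 ± 0.13) and C9 (0.96 ± 0.12) were higher. C6 read 10.99, 10.78 and 11.12 in DBA/2J against 9.53, 9.48 and 9.37 in AKR/J, and C57BL/6J controls lay between them at 10.24 to 10.66. Properdin, encoded by Cfp, was higher by 0.96 ± 0.25 and the factor H related gene Cfhr2 lower by -1.05 ± 0.11. C8a, C8b, Cfb and the lectin pathway genes Mbl1 and Mbl2 did not pass. Of 32 acute phase and serpin genes 1 was higher and 2 were lower: Serpina7, which encodes thyroxine binding globulin, was higher by 1.85 ± 0.23. Serpinc1, antithrombin, and Itih2 were lower by -0.31 ± 0.07 and -0.30 ± 0.08. Saa1 ranged over several log2 units within each strain, and its difference of -0.45 ± 0.88 did not pass.

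Genes of sterol and bile acid handling leaned lower in DBA/2J control liver, with a median of -0.08. Of 40 measured, 0 were higher and 6 were lower, where 2.43% of all genes were lower. By limma 11 had an unadjusted p under 0.05, where 3156 of all 18193 genes did. In sleep-deprived liver 2 were higher and 2 lower (3.91% and 2.80% of all genes), with a median of 0.02. The difference between conditions passed for 0 of the 40, so a change of the lean was not shown. In controls Cyp39a1 had by far the largest difference, at 3.71, 4.12 and 4.06 in DBA/2J against 6.20, 6.93 and 6.85 in AKR/J. The sterol exporters Abcg5 (-0.63 ± 0.11) and Abcg8 (-0.47 ± 0.11), the phospholipid exporter Abcb4 (-0.47 ± 0.11), Apom and Slco2b1 differed by less. Cyp7a1, the rate-limiting enzyme of bile acid synthesis, overlapped, with 10.02, 10.48 and 10.25 in DBA/2J and 10.70, 10.13 and 10.30 in AKR/J (-0.13 ± 0.25). Cholesterol synthesis genes had 0 of 21 members past the threshold in either direction by limma, 2 at an unadjusted p under that value, and a median of -0.08.

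Of 35 targets of the nuclear receptor PPAR-alpha, which drives fatty acid oxidation, 4 were higher and 1 was lower, against 3.46% and 2.43% of all genes, and the median was 0.04. Besides Vnn1 and Vnn3 the higher ones were Fgf21, a fasting hormone (1.01 ± 0.22, the arrays overlapping), and Decr1 (0.42 ± 0.09). Acot12 was lower by -0.51 ± 0.11 in its brightest probe set and higher by 1.87 ± 0.12 in another (7.06 in DBA/2J and 5.19 in AKR/J), so its direction is uncertain. The transport gene Cpt1a was at -0.15. Pparg, the nuclear receptor that drives lipid storage, read 6.55, 6.62 and 6.05 in DBA/2J and 4.65, 4.68 and 4.99 in AKR/J (1.63 ± 0.12, adjusted p = 4.21e-08, limma), whereas the lipogenic enzymes Fasn (0.33 ± 0.21) and Scd1 (-0.02 ± 0.20) did not pass. Of 22 genes of lipid droplets and fatty acid uptake, the fatty acid binding proteins Fabp7 (2.56 ± 0.30) and Fabp2 (1.00 ± 0.10) were higher and the bile acid ligase Slc27a5 lower (-0.41 ± 0.11).

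Glucose genes had 3 higher and 1 lower of 32. Pfkfb3, which makes the activator of phosphofructokinase, was at 5.84, 6.67 and 6.74 in DBA/2J against 4.51, 4.56 and 3.90 in AKR/J (2.10 ± 0.25, adjusted p = 1.85e-05, limma). Its second probe set was dim and did not pass (0.25 ± 0.25). The glycogen branching enzyme Gbe1 was higher (0.47 ± 0.08) and the glycogen phosphorylase Pygl lower (-0.32 ± 0.09). Of 48 genes of amino acid breakdown, 3 were lower and 0 higher, against 2.43% and 3.46% of all genes: Sardh, Prodh2 and Gldc, at -0.44 to -0.49. This list leaned lower too, with a median of -0.16 and 14 differences above 0. By limma 23 of the 48 had an unadjusted p under 0.05, as did 3156 of all 18193 genes. Its median in sleep-deprived liver was -0.04. Of 27 iron and heme genes, Hamp2 and the biliverdin reductase Blvrb (1.22 ± 0.09) were higher and Ppox lower (-0.57 ± 0.11). Mup10, a major urinary protein of male liver, was lower by -1.24 ± 0.18, and Hsd3b2, a steroid dehydrogenase, higher by 1.99 ± 0.16. Major urinary protein genes are near copies of each other, so their values are uncertain as to which copy was measured.

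Of 23 clock genes measured, 0 were higher and 2 were lower, Lpin1 (-0.89 ± 0.19) and Clock (-0.53 ± 0.12), against 3.46% and 2.43% of all genes. Their other probe sets did not pass, at -0.63 for Lpin1 and at -0.25, -0.37 and -0.07 for Clock. Per3 did not pass in its brightest probe set (-0.09), but 2 dimmer ones were lower, by -0.60 ± 0.14 and -0.62 ± 0.12. Dbp, a clock output gene with a strong daily rhythm in liver, read 9.81, 10.53 and 10.18 in DBA/2J and 10.23, 10.22 and 10.12 in AKR/J. The AKR/J arrays whose source name gives ZT 0, numbers 2 and 3, were close to number 1 for Dbp. For Nr1d1 the AKR/J values were 7.88, 8.26 and 8.05, and for Arntl 4.88, 5.22 and 5.23. The chaperone list held 6 higher and 1 lower of 34, led by the endoplasmic reticulum chaperone Hyou1 (0.76 ± 0.12) and by Ddit3 (0.59 ± 0.12) and Creld2 (0.58 ± 0.13). The replication and cell division genes Mcm6 (1.16 ± 0.19), Mcm5, Birc5 and Cdk1 were higher among 31 of the cell cycle, and Cdkn2c was lower (-0.83 ± 0.13).

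The 6 arrays of sleep-deprived DBA/2J and AKR/J liver, none of which entered the control contrast, gave the same strain difference a second reading, with the spread estimated in the same fit. Here 712 genes were higher (3.91%) and 510 lower (2.80%). Of the genes higher in controls 368 of 629 were also higher in sleep-deprived liver (58.5% of the control list and 51.7% of the other), and 2 were lower. Of the lower genes 235 of 442 were again lower (53.2% and 46.1%), and 0 were higher. The sign was shared by 95.7% of the higher and 92.8% of the lower genes. DBA/2J sleep-deprived array 2 stood apart, with skeletal muscle markers at a mean of 7.75 where the other liver arrays of these 2 strains lay at 3.91 to 4.08. Without it 463 genes were higher (2.54%) and 328 lower (1.80%), and 274 and 196 genes were shared with the controls.

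Ugt3a2 (6.63 ± 0.22) and Nlrp12 (-5.20 ± 0.22) differed as widely in sleep-deprived as in control liver. BC023105 read 5.01, 4.82 and 4.37 in sleep-deprived DBA/2J and 3.22, 3.71 and 4.17 in sleep-deprived AKR/J. It did not pass there (1.03 ± 0.36, adjusted p = 0.1130, limma). Its change between conditions, -2.23 ± 0.50, did not pass either (adjusted p = 0.2419, limma), so a dependence on condition was not shown. Of the interferon list 16 members were higher and 1 lower (14 and 1 without the array with muscle markers), and the median was 0.70 (0.64 without it). Of the MHC list 9 were higher and 1 lower (8 and 1), and of the Kupffer list 6 and 0 (1 and 0).

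**Figure D5:**
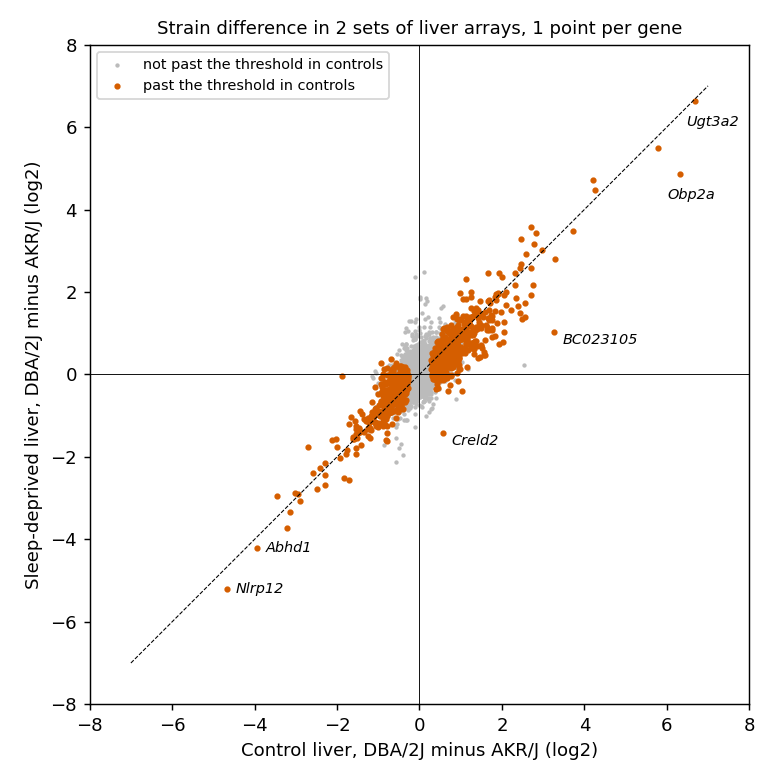
Difference DBA/2J minus AKR/J (log2) of each of 18193 genes in control liver (horizontal axis) and in sleep-deprived liver (vertical axis), with the 1071 genes past the threshold in controls in orange and the line of equal difference dashed. Ugt3a2 and Nlrp12 lie at the ends near the line, and BC023105 lies well below it. The difference between conditions did not pass for BC023105. Creld2 is above 0 in controls and below 0 after sleep deprivation.

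A difference between the 2 conditions passed for 7 probe sets (0.0155%) and 5 genes (0.0275%). Creld2, a chaperone-like gene of the endoplasmic reticulum, read 8.54, 8.59 and 8.61 in sleep-deprived DBA/2J and 10.12, 9.76 and 10.09 in sleep-deprived AKR/J, against 8.53, 8.19 and 7.99 in DBA/2J controls and 7.62, 7.68 and 7.67 in AKR/J controls. The strains thus stood in opposite order, and the change of the difference was -1.99 ± 0.18 (adjusted p = 8.56e-05, limma). Ifi47, an interferon-inducible GTPase, had 8.90, 9.22 and 8.58 in sleep-deprived DBA/2J and 9.26, 9.20 and 9.48 in sleep-deprived AKR/J, which overlapped. In controls it had 10.19, 10.35 and 9.62 in DBA/2J and 8.94, 9.20 and 8.93 in AKR/J, which did not, and the change of the difference was -1.44 ± 0.23. Ppp2r3a (1.19 ± 0.19), Pla2g7 (1.19 ± 0.19) and Rbm33 (1.06 ± 0.17) were the others, each at an adjusted p of 0.0470 (limma). The number of probe sets was 2 to 24 when 1 array was left out, and 24 without DBA/2J control 3. Of the 34 chaperone genes, 1 was higher and 6 were lower in sleep-deprived liver (1 and 5 without the array with muscle markers), against 3.91% and 2.80% of all genes. In controls 6 were higher and 1 was lower, against 3.46% and 2.43%. The difference between conditions passed for 1 of the 34, Creld2.

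In brain of the same strains, normalised apart from liver, 145 genes were higher in DBA/2J (0.797%) and 142 lower (0.781%). Of the genes higher in liver, 61 were higher in brain (9.7% of the liver list and 42.1% of the brain list), and of the lower genes 54 were lower (12.2% and 38.0%), while 6 and 3 were called the opposite way. Cap1 (3.90), H2-K1 (3.07) and Pdxdc1 (-3.23) passed in brain with the same sign as in liver, and for Cap1 the difference in liver minus that in brain was -0.92 ± 0.19 (adjusted p = 0.0028, limma). The liver enzymes Ugt3a2 (0.12), Cyp2c37 (0.02) and Nat8 (0.02) did not pass there. A test of liver minus brain passed for 886 probe sets (1.97%) and 462 genes (2.54%), with 6.56 ± 0.26 for Ugt3a2 and -4.63 ± 0.27 for Nlrp12. Of the interferon list 8 members were higher in brain and 0 lower, among them Ifit3 (1.34), Gbp7 (0.98), Igtp (0.94) and Ifit1 (0.93). The difference in Ifit1 was larger in liver by 1.28 ± 0.31 (adjusted p = 0.0202, limma), and that in Gbp3 was not shown to differ (1.02 ± 0.32, adjusted p = 0.1208, limma). The Kupffer and macrophage list had 0 members past the threshold in brain.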

How the data were processed

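Each array carried cRNA from RNA of 3 pooled mice, on an Affymetrix mouse expression array. The deposited table holds log2 values, and RMA is the tool named for it in the submitters' processing notes, without a version in the sources used here. RMA subtracts background, equalises the distributions of arrays processed together and compresses changes of dim probe sets. Array medians were 4.05 to 4.13 in liver and 4.73 to 4.86 in brain, so no level was compared between tissues.

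The array has 45101 probe sets, of which 64 are the manufacturer's controls and were not used. Of the rest 34945 had 1 gene symbol (34741 updated by gene identifier through GRCm38.p6), 932 several and 9160 none. Each gene was represented by its brightest probe set, by mean over the 18 liver arrays. The deposited values were fitted without further normalisation with limma 3.58.1 in R 4.3.3 as 6 liver groups; two-sided p-values were Benjamini-Hochberg adjusted over all 45037 and called under 0.05. Values after ± are limma's standard errors, n = 3 arrays per group. Arrays have no depth, and their number limits the precision. On data simulated for the control liver comparison over 45037 probe sets, 41.0% of changes of 0.5 and 94.0% of changes of 1 (log2) were found, with 5 false calls of 140. The simulation used independent normal noise and far fewer changed probe sets than the 1898 that passed in the data. Its rates are therefore not those of the real comparison.

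Named were the 15 largest differences in each direction past the threshold without overlap, up to 4 called members of each gene list and 3 of each marker list, and the 5 largest differences between conditions and tissues. Further list members were named after their values were seen. The comparison, members and lists were chosen with earlier results of these data known. Of 948 list entries 818 were found, and the others were not analysed here. The alternatives were other sample sets, centring, quantile normalisation, filters, a replicate block and leaving out each array. Columns of per-sample values left unused numbered 0.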

Additional observations from a re-analysis of the deposited data

Results flagged for a closer look

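The strain difference passed a direct test against a second factor in the following cases. Between conditions, 7 probe sets passed the test of the strain difference in sleep-deprived liver minus that in control liver. The genes were Creld2 (-1.99), Ifi47 (-1.44), Ppp2r3a (1.19), Pla2g7 (1.19) and Rbm33 (1.06), all log2 by limma. Apart from Creld2 each had an adjusted p of 0.0470, and the 7 probe sets became 2 after median centring or with the replicate block, so these calls are marginal. Pla2g7, a phospholipase of macrophages among other cells, read 6.04, 5.88 and 5.80 in sleep-deprived DBA/2J and 3.67, 3.57 and 3.51 in sleep-deprived AKR/J, against 4.95, 4.53 and 4.87 in DBA/2J and 3.63, 3.59 and 3.73 in AKR/J controls. Between tissues, 886 probe sets passed the test of the strain difference in liver minus that in brain. The 5 genes with the largest values were Gh (-7.22), Ugt3a2 (6.56), Obp2a (6.22), Cyp2c37 (5.77) and Nlrp12 (-4.63). The value of Gh, growth hormone, came from brain, where it was 7.31 ± 1.32 higher in DBA/2J, while in liver it was 0.09 higher and dim. No cause was tested for these differences.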

How the results depend on the processing

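All 154 named genes past the threshold kept their direction under every alternative, and 86 also stayed past it, the 30 with the largest differences among them. In control liver, where 1898 probe sets passed, 1035 passed with only the 6 arrays of the comparison, 726 with AKR/J controls 2 and 3 left out, 437 with a size of at least 1, and 1373 to 2006 with 1 array left out. The other alternatives gave 1514 to 1925. Against 1071 genes called by the brightest probe set, 592 had every probe set called one way, of which 92 were among the 571 with more than 1 probe set and the rest had a single one. The count of interferon list members fell to 17 with a mean of at least 6, a filter that removes dim members. Kupffer markers numbered 3 with only the 6 arrays and 4 with a trended and robust variance. In sleep-deprived liver, where 2322 probe sets passed, leaving out 1 array gave 1479 to 2192, with 1484 without DBA/2J array 2. For the difference between conditions, 7 probe sets became 2 after centring each array on its median and 2 to 24 with 1 array left out. Same-numbered deviations from the group means correlated at -0.02, 0.21 and 0.15 between the 2 control groups. For numbers 2 and 3, though not for number 1, the same number gave the highest correlation. Whether the replicate numbers pair the samples is therefore uncertain, and the main fit did not pair them. With the replicate block 1881 probe sets passed in control liver and 2 for the difference between conditions. The cause of these changes was not tested. RMA compresses dim probe sets, and 3 pools per strain limit what small differences can pass.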

Other observations

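Genes called in the same direction were sometimes neighbours on the chromosome. Of 1066 called genes placed on GRCm38.p6, 181 (17.0%) had an adjacent measured gene called the same way, and 11 runs of at least 3 genes occurred. The longest runs held 4 genes each, Gbp7, Gbp3, Gbp2b and Gbp2 in 1 and Psmb9, Tap1, Psmb8 and Tap2 of the MHC in the other, all higher in DBA/2J. Other higher runs were C1qb, C1qc and C1qa, then H2-Ab1, H2-Aa and H2-Eb1, then Ifit2, Ifit3 and Ifit1bl1, then the tetraspan genes Ms4a6b, Ms4a4d and Ms4a6d, and Prrc2c with Fmo4 and Fmo1. Lower runs included Abcg5 and Abcg8 with Lrpprc. Of all genes, 3.46% were called higher and 2.43% lower. The share of neighbours to be had without clustering was not computed, and no test of this pattern was run. The 17.0% therefore does not show that called genes cluster. Cyp4a14, a target of PPAR-alpha, was high in 1 DBA/2J control array only, at 6.26 against 3.22 and 3.39, with 3.24, 3.45 and 3.42 in AKR/J.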
